A study of Mus musculus with 4 samples.

Results

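The genes described here are 10 transcripts known as targets of PPARα: Cyp4a10, Cyp4a14, Fabp1, Acot1, Acot2, Pdk4, Angptl4, Plin2, Vnn1 and Creb3l3. They are 10 of the 32285 genes listed in 4 single-cell RNA-Seq (scRNA-Seq) libraries of whole mouse kidney, and they were chosen by their measured values in these same libraries, so their differences between libraries are given as a description. Each was taken by its symbol, and its level was read in proximal tubule cells (PTCs) and in 10 other cell classes. A PTC was a kept cell with at least 5 UMIs (unique molecular identifiers, counts of single captured RNA molecules) of Slc34a1 and Lrp2 together, the phosphate transporter and the endocytic receptor megalin of the proximal tubule brush border.

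There was 1 library per condition. WT-ND and WT-HFD came from WT mice on normal diet (ND) or high-fat diet (HFD, 60% of calories from fat), and SP-ND and SP-HFD from Sweet Pee (SP) mice on the same diets. SP mice are homozygous for a missense mutation of Slc5a2, the gene encoding the glucose cotransporter SGLT2, and the mutation is inherited, so every cell carries it. All mice were males of the C3H strain that started the diet at 10 weeks of age, were fed for 8 weeks and were 18 weeks old at harvest. The number of mice behind each library is not given in the sources used here. A difference between conditions therefore cannot be told apart from a difference between mice or preparations, no test was possible, and every interval below is a 95% interval for counting error alone.

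PPARα is a nuclear receptor that binds fatty acids and, together with RXR, switches on genes for fatty acid transport, activation, oxidation and ketone synthesis. It is best known in liver during fasting, and it is also abundant in the proximal tubule, a segment that draws most of its energy from fatty acids. Its response element is a pair of AGGTCA half-sites in the same orientation separated by 1 base.

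The libraries held 13229 to 16385 barcodes, each with at least 500 UMIs, and 90728590 to 115117649 UMIs. After filtering, the WT libraries kept 9924 cells on ND and 8947 on HFD, with 2701 and 3062 PTCs, and the SP libraries kept 6389 and 7020 cells, with 1158 and 749 PTCs, out of 32280 kept cells in all. All 9 check markers of the proximal tubule that the rule did not use, among them Slc22a6, Cubn, Miox and Kap, were highest in the PTC class in all 4 libraries. The WT-HFD library stood apart, because 1236 of its PTCs (40.4%) also met the rule of another cell class, against 140 (5.18%) of those of WT-ND and, among SP mice, 47 (4.06%) on ND and 38 (5.07%) on HFD. The 4 check markers of the thick ascending limb summed to 1200 CPM (the usual scaled count, a gene's UMIs over all UMIs of the pooled cells) in the PTCs of WT-HFD and to 324 to 362 CPM in the other libraries. Ratios of the members to WT-HFD in the PTC class are therefore given with and without those cells, and other values of WT-HFD include them unless said. The paper on these libraries described PTCs, seen mainly in WT mice on HFD, that also expressed the thick ascending limb genes Slc12a1 and Umod. Whether the 1236 PTCs hold such cells was not tested, so values without them may leave such PTCs out. Slc5a2 RNA was at 307 CPM (ND) and 198 CPM (HFD) in WT PTCs and at 58.3 and 98.6 CPM in SP PTCs, but RNA level does not test a missense mutation. Any pair of libraries shared 9 to 38 barcodes among kept cells, at most 0.425% of a library. Lists of 4 values here and hereafter follow the order WT-ND, WT-HFD, SP-ND, SP-HFD. Just inside the rule, with a sum of 5 or 6 UMIs, were 310, 527, 92 and 82 PTCs, and just outside it, with a sum of 3 or 4, were 1177, 825, 278 and 188 cells.

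Promoter sequence is shown for 4 members, chosen because Fabp1 and Acot1 differed widely between libraries, Acot2 is the neighbouring paralog of Acot1, and Plin2 hardly differed. The sequences are from RefSeq on build GRCm38.p6, which holds a promoter for 6 of the 10 members (no entry for Cyp4a10, Cyp4a14, Angptl4 and Vnn1), and each printed stretch was trimmed to end before the first transcribed base of RefSeq or GENCODE, whichever came first, while the motif search used the full 250 bases before the RefSeq start. The windows are chr6:71199629-71199826 on the plus strand for Fabp1, chr12:84009252-84009489 on the plus strand for Acot1, chr12:83987611-83987860 on the plus strand for Acot2 and chr4:86670061-86670309 on the minus strand for Plin2, all printed 5′ to 3′ on the strand of the gene. Capitals mark the stretch closest, on either strand, to a direct repeat of AGGTCA with 1 free base between the copies, with 12 letters compared. Acot1 had 2 equally close positions, of which 1 is marked.
Fabp1: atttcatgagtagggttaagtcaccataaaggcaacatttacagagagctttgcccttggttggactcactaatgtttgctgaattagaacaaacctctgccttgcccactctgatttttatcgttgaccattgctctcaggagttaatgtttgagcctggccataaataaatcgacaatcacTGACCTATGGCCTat
Acot1: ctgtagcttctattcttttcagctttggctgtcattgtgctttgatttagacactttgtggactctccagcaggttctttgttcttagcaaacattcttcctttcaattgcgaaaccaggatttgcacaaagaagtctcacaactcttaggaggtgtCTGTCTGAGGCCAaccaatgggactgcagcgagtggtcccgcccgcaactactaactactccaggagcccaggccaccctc
Acot2: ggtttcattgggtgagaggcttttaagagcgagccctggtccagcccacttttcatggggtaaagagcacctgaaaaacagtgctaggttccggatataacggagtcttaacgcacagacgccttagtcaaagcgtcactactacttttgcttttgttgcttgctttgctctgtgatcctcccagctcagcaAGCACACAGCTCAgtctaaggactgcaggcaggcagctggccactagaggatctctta
Plin2: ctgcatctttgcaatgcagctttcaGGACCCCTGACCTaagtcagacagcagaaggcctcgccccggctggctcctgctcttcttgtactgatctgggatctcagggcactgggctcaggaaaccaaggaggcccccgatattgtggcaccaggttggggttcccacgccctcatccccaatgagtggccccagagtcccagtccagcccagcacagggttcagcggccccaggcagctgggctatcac

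In Fabp1 the stretch TGACCTATGGCCT, read on the opposite strand, differed from the repeat at 1 letter and lay 67 to 55 bases before the RefSeq start, which is close to the end of the printed stretch because GENCODE places the gene's start further upstream. At most 1 mismatch was found in 0.484% of all 32851 promoter windows of 250 bases. Plin2 held a stretch with 2 mismatches, 225 to 213 bases before the start, as 3.24% of windows did with 2 or fewer. The closest stretch had 3 mismatches in Acot2, reached by 21.3% of windows, and 4 in Acot1 and Pdk4, reached by 74.5%. Creb3l3 has 2 promoter windows, 1 with 2 mismatches and 1 with 4. The single half-site AGGTCA was present on either strand in 14.0% of all windows. These are matches of letters within a short window and say nothing of binding.

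In PTCs, 9 of the 10 members were highest in SP-ND, Pdk4 being the exception, and for 6 of them (Cyp4a10, Cyp4a14, Fabp1, Acot1, Acot2 and Angptl4) both ND libraries lay above both HFD libraries with no overlap of their intervals. The widest differences were in Cyp4a14 and Fabp1. With Fabp1, Cyp4a10, Cyp4a14 and Acot1 the 2 HFD libraries lay closer to each other than the 2 ND libraries did. The SP-HFD and WT-HFD intervals overlapped for Cyp4a14, Fabp1, Acot1, Acot2 and Angptl4, and for Plin2 and Creb3l3 all neighbours in the order of levels did. For Vnn1 the SP-HFD interval overlapped those of WT-ND and WT-HFD. For Pdk4 the WT-HFD interval overlapped that of SP-ND, and the WT-ND interval that of SP-HFD. Levels were compared between libraries, not between genes. The counts of 9 and 6 members were not made over all genes. They describe the members only, with no share of all genes to set beside them.

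**Figure D1:**
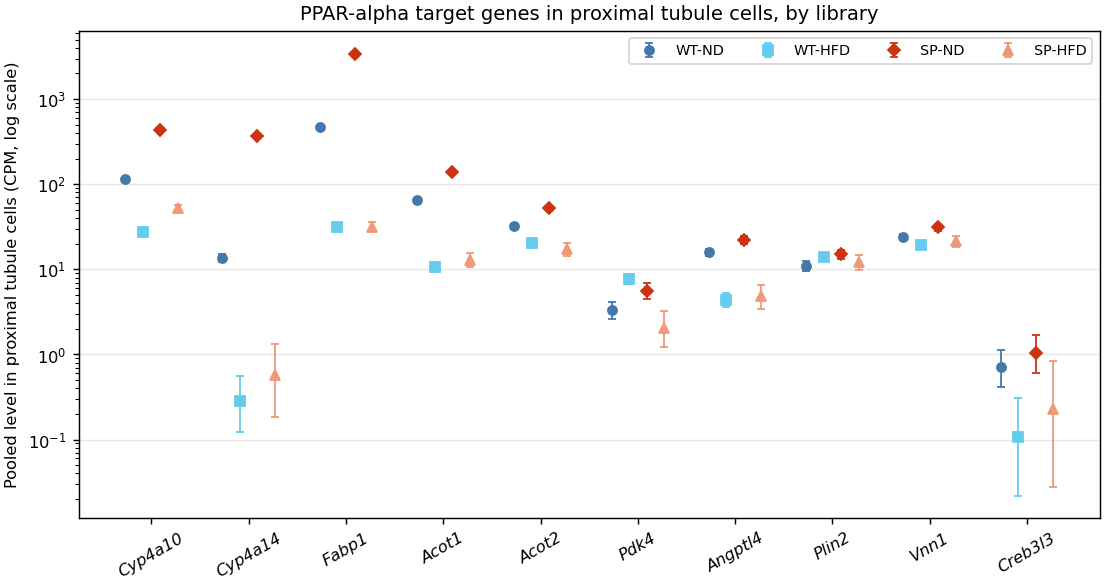
Pooled level (CPM, log axis) of the 10 PPARα target genes in PTCs of the 4 libraries, with exact Poisson 95% intervals for counting error. SP-ND (red diamonds) is the highest library for every gene but Pdk4, and the HFD libraries (light squares and triangles) lie below the ND libraries for Cyp4a10, Cyp4a14, Fabp1, Acot1, Acot2 and Angptl4.

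The Cyp4a enzymes hydroxylate fatty acids at the omega end, the first step of a route that feeds long-chain fatty acids to peroxisomes, and Cyp4a10 and Cyp4a14 are classical PPARα targets. Cyp4a10 (chr4:115518264-115533649, plus strand) and Cyp4a14 (chr4:115486200-115496142, minus strand) lie close together on chromosome 4. Cyp4a10 was at 115 CPM (95% interval 111 to 119, 2757 UMIs) for WT-ND, 27.8 (25.9 to 29.8) for WT-HFD, 433 (423 to 444) for SP-ND and 52.0 (47.3 to 57.0) for SP-HFD. None of these 4 intervals overlapped, and the order was SP-ND, WT-ND, SP-HFD, WT-HFD. On the log2 scale, HFD against ND was at −2.05 (−2.16 to −1.93) in WT and −3.06 (−3.20 to −2.92) in SP mice. SP against WT gave 1.91 (1.85 to 1.98) on ND and 0.90 (0.73 to 1.07) on HFD, and without the PTCs that also met another class's rule the latter was 0.62 (0.43 to 0.80).

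Cyp4a14 was detected far less evenly. It was at 13.7 CPM (328 UMIs) in the ND library and 0.284 (8 UMIs) in the HFD library of WT mice, and 371 (5638 UMIs) and 0.572 (5 UMIs) in those of SP mice. The SP-ND level was 27.1-fold that of WT-ND, a log2 ratio of 4.76 (4.60 to 4.93). The HFD levels were near absence in both genotypes, with log2 ratios to ND of −5.59 (−6.81 to −4.59) in WT and −9.34 (−10.96 to −8.12) in SP mice. The SP-HFD and WT-HFD intervals overlapped, and their ratio of 1.01 (−0.95 to 2.80) could not be separated from 0 at this depth.

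Fabp1, the liver-type fatty acid binding protein that carries fatty acids through the cytosol (chr6:71199827-71205023, plus strand), was at 466 CPM (11163 UMIs) for WT-ND, 31.6 (889 UMIs) for WT-HFD, 3419 (51939 UMIs) for SP-ND and 31.8 (278 UMIs) for SP-HFD. SP-ND was thus 7.34-fold above WT-ND, while the HFD libraries differed by a log2 ratio of 0.01 (−0.19 to 0.21). HFD against ND gave a log2 ratio of −3.88 (−3.98 to −3.78) in WT and −6.75 (−6.92 to −6.58) in SP mice. Without the PTCs that met another class's rule, WT-HFD was at 40.9 CPM and SP-HFD at 33.1, a log2 ratio of −0.30 (−0.51 to −0.10), so the order of the HFD libraries depended on those cells.

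Acot1 and Acot2 encode the cytosolic and the mitochondrial acyl-CoA thioesterase, which release free fatty acids from CoA, and lie close together on chromosome 12 (chr12:84009490-84018371 and chr12:83987861-83993873, both plus strand). Acot1 was at 64.5 CPM in the ND library and 10.7 in the HFD library of WT mice, and 140 and 12.9 in those of SP mice. Acot2 was at 31.9, 20.5, 52.5 and 17.2 CPM, a narrower range. Acot1 had log2 ratios of HFD against ND of −2.59 (−2.78 to −2.41) in WT and −3.43 (−3.72 to −3.16) in SP mice, and Acot2 had −0.64 (−0.80 to −0.48) and −1.61 (−1.87 to −1.36). SP-ND against WT-ND gave 1.12 (1.02 to 1.21) for Acot1 and 0.72 (0.57 to 0.86) for Acot2. On HFD, neither gene had an interval that excluded 0. Of 822 windows of 90 bases in the last 500 bases of Acot1 transcripts, 25 were also found in Acot2. None of the windows of Acot2 was found in another gene, so few 3′ end reads could be shared between Acot1 and Acot2. The end windows of Cyp4a10, Cyp4a14 and Fabp1 were likewise found in no other gene. Some end windows of Cyp4a31 and Cyp4a32 did occur in Cyp4a10 transcripts.

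Angptl4, a secreted inhibitor of lipoprotein lipase (chr17:33773750-33781830, minus strand), was at 15.8 CPM (379 UMIs) for WT-ND, 4.37 (123 UMIs) for WT-HFD, 21.9 (333 UMIs) for SP-ND and 4.81 (42 UMIs) for SP-HFD. Both HFD libraries lay below both ND libraries, with log2 ratios of −1.86 (−2.16 to −1.56) in WT and −2.19 (−2.69 to −1.72) in SP mice. The difference between genotypes was smaller, with a log2 ratio of 0.47 (0.25 to 0.69) on ND and 0.14 (−0.40 to 0.65) on HFD.

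Vnn1, the pantetheinase of the cell surface (chr10:23894688-23905343, plus strand), and Plin2, the protein that coats lipid droplets (chr4:86648386-86670060, minus strand), differed little. Vnn1 was at 23.8 CPM in the ND library and 19.1 in the HFD library of WT mice, and 31.1 and 21.4 in those of SP mice, and Plin2 was at 11.0, 14.0, 15.0 and 12.1 CPM. Neither gene reached a log2 ratio of 1 in either direction in any of the 4 comparisons. Plin2 was above WT-ND in WT-HFD, with a log2 ratio of 0.35 (0.13 to 0.59), and in SP-ND, with 0.45 (0.19 to 0.71).

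Pdk4 and Creb3l3 were sparse. Creb3l3, a transcription factor of the liver and intestine (chr10:81084324-81098874, minus strand), had 17 UMIs (0.710 CPM) for WT-ND, 3 (0.107 CPM) for WT-HFD, 16 (1.05 CPM) for SP-ND and 2 (0.229 CPM) for SP-HFD. Its log2 ratio of HFD to ND had an interval of −5.15 to −0.95 in WT and −5.37 to −0.11 in SP mice. Pdk4, the kinase that shuts pyruvate out of oxidation by blocking pyruvate dehydrogenase (chr6:5483351-5496309, minus strand), was at 3.30 CPM (79 UMIs) in the ND library and 7.67 (216 UMIs) in the HFD library of WT mice, and 5.59 (85 UMIs) and 2.06 (18 UMIs) in those of SP mice. It was the sole member that was not highest in SP-ND, but this rested on the PTCs of WT-HFD that also met another class's rule. In those cells Pdk4 was at 14.3 CPM, and without them WT-HFD was at 3.61 CPM, and SP-ND, at 5.65 CPM, was then the highest library. The log2 ratio of WT-HFD to WT-ND was 1.22 (0.84 to 1.61) with those cells and 0.23 (−0.29 to 0.74) without them. The log2 ratio of SP-HFD to WT-HFD was −1.90 (−2.68 to −1.20) with them and −0.87 (−1.76 to −0.06) without. Pdk4 was higher in thick ascending limb cells than in PTCs, and the part of that segment's RNA in these PTCs was not tested.

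**Figure D2:**
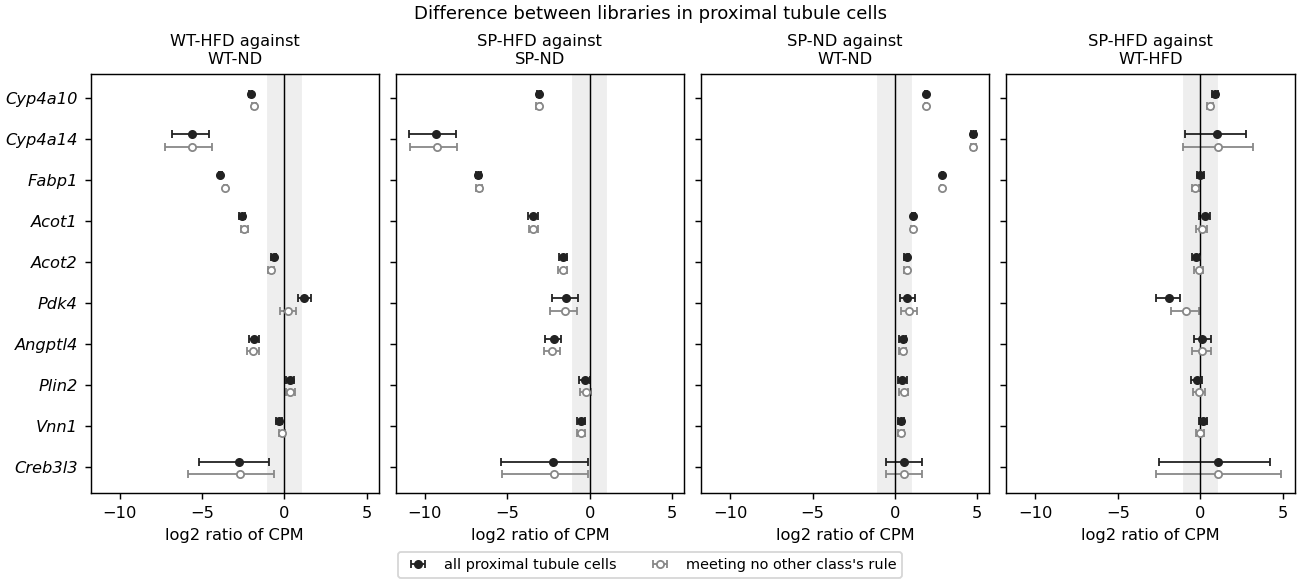
log2 ratio of pooled CPM in PTCs for the 4 comparisons (columns), with exact conditional binomial 95% intervals, over all PTCs (black) and over PTCs that met no other class's rule (open grey). The shaded band marks less than 2-fold. Pdk4 in WT-HFD against WT-ND moves from 1.22 to 0.23 between the 2 sets of cells, and the ratios of Cyp4a14, Fabp1 and Acot1 stay outside the band in the first 3 comparisons, although the open Acot1 interval reaches its edge in SP-ND against WT-ND.

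Without the PTCs that met another class's rule, WT-HFD against WT-ND gave −1.82 (−1.95 to −1.69) for Cyp4a10, −5.60 (−7.24 to −4.37) for Cyp4a14 and −3.57 (−3.68 to −3.46) for Fabp1 on the log2 scale. Acot1 was then at −2.42 (−2.63 to −2.21), Acot2 at −0.80 (−0.996 to −0.61) and Angptl4 at −1.89 (−2.26 to −1.53). Plin2 was at 0.36 (0.09 to 0.63), and Vnn1 was at −0.15 with an interval that now held 0 (−0.34 to 0.04), whereas it was at −0.32 (−0.49 to −0.14) with those cells. For Creb3l3 the interval ran from −5.87 to −0.63. SP-HFD against WT-HFD gave 0.62 (0.43 to 0.80) for Cyp4a10 without those cells, against 0.90 (0.73 to 1.07) with them, and −0.30 (−0.51 to −0.10) for Fabp1, against 0.01 (−0.19 to 0.21) with them. The same comparison stayed below 2-fold for Acot1 (0.10), Acot2 (−0.09), Angptl4 (0.10), Plin2 (−0.07) and Vnn1 (−0.01), each with an interval that held 0, and Cyp4a14 (1.10, −1.02 to 3.22) and Creb3l3 (−2.68 to 4.89) could not be placed.

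Counted by a fixed size of difference, at least 2-fold among genes that reached 10 CPM in 1 of the 2 libraries, 5 of the 8 members tested were lower in WT-HFD than in WT-ND (Cyp4a10, Cyp4a14, Fabp1, Acot1 and Angptl4) and 0 were higher. Among all 7257 genes that met this minimum, 1.27% were lower and 5.68% were higher. In SP mice, 6 of the 8 members were lower in SP-HFD than in SP-ND, the same genes and Acot2, and 0 were higher, against 2.11% and 3.13% of 7117 genes. On ND, 4 of 8 (Cyp4a10, Cyp4a14, Fabp1 and Acot1) were higher in SP than in WT mice and 0 were lower, against 0.591% and 1.05% of 6934 genes. On HFD, 0 of the 6 members above the minimum differed at least 2-fold in either direction, against 0.399% higher and 5.03% lower of 7273 genes. The minimum left out Pdk4 and Creb3l3 in every comparison, and Cyp4a14 and Angptl4 on HFD. The median log2 ratio of the members tested was −1.95, −2.62, 0.92 and 0.09 in these 4 comparisons, and that of all genes was 0.003, 0.004, 0.06 and 0.07. Without the PTCs that met another class's rule, the counts of members were again 5 of 8 lower in WT-HFD than in WT-ND and 0 of 6 between the HFD libraries. The shares of all genes were not counted again without those cells, so they hold for all PTCs only. Since the members were chosen for these values, the shares of all genes are given for scale. The comparisons share libraries and are not independent of each other.

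The proximal tubule changes along its length, so PTCs were divided by segment markers into early cells (Slc5a12 and Slc5a2) and late cells (Slc7a13, Cyp7b1 and Atp11a). Early and late cells were 40.3% and 36.2% of PTCs in WT-ND, 16.7% and 36.2% in WT-HFD, 25.7% and 39.6% in SP-ND and 21.0% and 54.9% in SP-HFD. Slc5a2 was itself low in the SP libraries, which bears on how many SP cells could be called early. Late markers differed as well. In late cells Cyp7b1 was at 0, 4.01, 22.6 and 41.0 CPM and Atp11a at 460, 487, 206 and 629 CPM. The part of these marker differences in the shares, and in comparisons by segment, was not tested.

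On ND, Cyp4a10 was higher in late than in early cells of WT mice (158 against 75.2 CPM, a log2 ratio of 1.07, 0.95 to 1.20) and of SP mice (576 against 262 CPM, 1.14, 1.04 to 1.23). Cyp4a14 was likewise higher in late cells, 17.7 against 9.63 CPM in WT-ND and 528 against 166 CPM in SP-ND. Acot1 followed, at 78.0 against 52.6 CPM in WT-ND and 175 against 95.5 in SP-ND. Fabp1 had the opposite slope, with 678 CPM in early and 314 in late cells of WT-ND and 3739 in early and 3134 in late cells of SP-ND.

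On HFD Cyp4a10 was at 34.1 CPM in early and 29.0 in late cells of WT-HFD, a log2 ratio of −0.24 (−0.47 to −0.003), and at 46.5 and 56.0 CPM in SP-HFD, 0.27 (−0.08 to 0.64). The early excess of Fabp1 was wider on HFD, 75.1 against 10.1 CPM in WT-HFD and 73.1 against 17.0 in SP-HFD. Acot2 had a log2 ratio of late to early cells of −0.16 (−0.38 to 0.06) in WT-ND and 0.58 (0.33 to 0.84) in SP-ND.

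For Fabp1, Cyp4a14 and Cyp4a10 the differences between libraries were present within each segment. For Fabp1 the log2 ratio of SP-ND to WT-ND was 2.46 (2.42 to 2.51) in early and 3.32 (3.27 to 3.37) in late cells, and for Cyp4a14 it was 4.11 (3.80 to 4.44) and 4.89 (4.69 to 5.10). For Cyp4a10 the ratio of WT-HFD to WT-ND was −1.14 (−1.35 to −0.93) in early cells and −2.45 (−2.61 to −2.29) in late cells. Acot1 was at a log2 ratio of 0.86 (0.67 to 1.05) between SP-ND and WT-ND in early cells, less than 2-fold, and at 1.17 (1.04 to 1.29) in late cells. Angptl4 differed between genotypes on ND in late cells, at 0.73 (0.44 to 1.03), while in early cells its interval held 0.

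**Figure D3:**
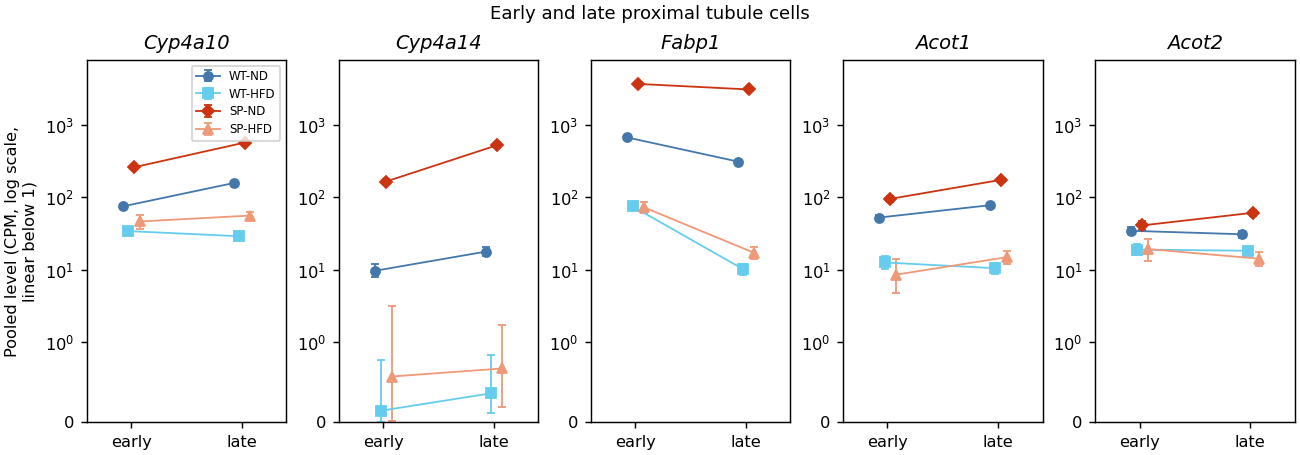
Pooled level (CPM, log axis that is linear below 1) in early and late PTCs of the 4 libraries for Cyp4a10, Cyp4a14, Fabp1, Acot1 and Acot2, with exact Poisson 95% intervals. On ND the lines climb from early to late for Cyp4a10, Cyp4a14 and Acot1 and descend for Fabp1, and the HFD libraries (light symbols) lie below the ND libraries in both segments for these 4 genes.

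PTCs differed in depth, with a median of 7697 UMIs for WT-ND, 6232 for WT-HFD, 13469.5 for SP-ND and 9613 for SP-HFD, so each cell was thinned to 1000 UMIs before shares of cells with a UMI were set side by side. This left out 120, 29, 14 and 30 shallower PTCs. After thinning, Fabp1 had a UMI in 25.1% of PTCs of WT-ND (95% interval 23.5 to 26.9), 3.66% of WT-HFD, 73.1% of SP-ND (70.4 to 75.6) and 2.09% of SP-HFD. The shares before thinning were 56.6%, 13.8%, 92.5% and 15.8%. In thick ascending limb cells, with median depths of 5043, 7701, 8631 and 6689.5 UMIs, the thinned shares were 2.02%, 0.124%, 7.34% and 0.101%, so the PTC share was above this background in all 4 libraries.

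Cyp4a10 was detected in 9.88%, 2.47%, 28.4% and 6.68% of thinned PTCs, against 46.0%, 17.4%, 80.7% and 36.3% before thinning and 0.852%, 0.498%, 1.81% and 0.101% in thinned thick ascending limb cells. Cyp4a14 was detected in 1.36% of thinned PTCs of WT-ND and 24.6% of SP-ND. It was found in 0 of 3033 thinned PTCs of WT-HFD and 0 of 719 of SP-HFD, which, at 3 counts, allows up to 0.0989% and 0.417% of cells with a UMI at this thinned depth. This is no limit on the cells that hold the transcript. Before thinning its shares were 8.48%, 0.229%, 66.9% and 0.534%.

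The high level in SP-ND was spread over most PTCs. The top 10% of PTCs by Fabp1 count held 38.1% of its UMIs in SP-ND and 63.4% in WT-ND, and for Cyp4a10 these shares were 35.8% and 47.7%. SP-ND cells were also deeper, and the part of depth in these shares was not tested.

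No member was detected in 58.5% (ND) and 86.4% (HFD) of thinned WT PTCs and in 13.5% (ND) and 86.9% (HFD) of thinned SP PTCs. In SP-ND 31.1% of cells held 2 members, 12.6% held 3 and 2.62% held 4, whereas 7.05% of WT-ND cells held 2 and no cell of either HFD library held more than 2. Within SP-ND, Cyp4a14 had a UMI in 31.7% of thinned PTCs with Cyp4a10 and in 21.7% of those without it. Fabp1 had a UMI in 73.2% of SP-ND cells with Cyp4a10 and in 73.0% of those without it.

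**Figure D4:**
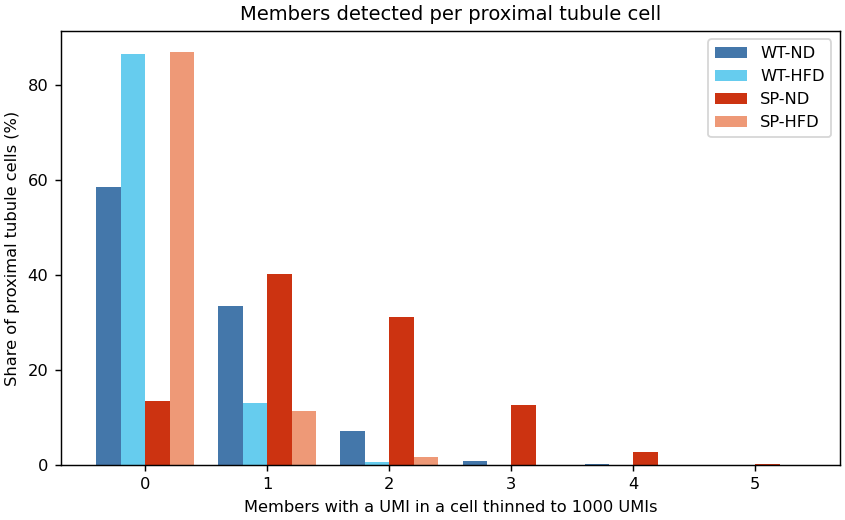
Share of PTCs (%) by the number of members with at least 1 UMI after each cell was thinned to 1000 UMIs, for the 4 libraries. The bars at 0 members stand at 58.5%, 86.4%, 13.5% and 86.9% in the order of the legend, and the SP-ND bars extend to 5 members.

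Outside the proximal tubule the members differed in where they were found. Cyp4a10, Cyp4a14 and Fabp1 were mainly proximal tubule transcripts, and Fabp1 and Cyp4a10 appeared in thick ascending limb cells at about the relative level of proximal tubule markers. In thick ascending limb cells, Fabp1 stood at 3.97%, 6.04%, 1.82% and 3.02% of its PTC level. The 9 check markers of the proximal tubule stood there at 4.03 to 6.22%, 2.68 to 5.32%, 1.73 to 2.86% and 1.50 to 2.73% of their PTC levels. Cyp4a10 was at 6.43%, 5.28%, 2.78% and 1.32%. Every such interval of Fabp1 and Cyp4a10 met the range of the markers, so these levels are read as background. Vnn1 was above the markers in these cells, at 9.63% (5.10 to 16.6), 16.9% (10.5 to 25.8), 13.6% (9.59 to 18.8) and 8.33% (4.36 to 14.6), with the interval reaching into the range of the markers in WT-ND alone. Thick ascending limb cells had to fail the PTC rule, and the part of that limit in this background was not tested. In T cells, held to the same limit, the 9 markers stood at 12.3 to 23.5%, 2.67 to 15.5%, 3.23 to 9.87% and 2.17 to 7.36% of their PTC levels.

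Plin2, Pdk4 and, in every library but SP-ND, Acot2 were higher in at least 1 other class than in PTCs. Plin2 was highest in macrophages, where it was at 217 CPM (94 UMIs, 161 cells) in the ND library and 337 (307 UMIs, 179 cells) in the HFD library of WT mice, and 127 (82 UMIs, 166 cells) and 248 (277 UMIs, 268 cells) in those of SP mice. In macrophages it was higher on HFD, with a log2 ratio to ND of 0.63 (0.30 to 0.98) in WT and 0.97 (0.61 to 1.35) in SP mice, and lower in SP than in WT on ND (−0.78, −1.22 to −0.34) and on HFD (−0.44, −0.68 to −0.20). Endothelial cells held 46.3, 62.1, 46.8 and 75.3 CPM of Plin2, with a log2 ratio of HFD to ND of 0.42 (0.08 to 0.77) in WT and 0.69 (0.38 to 1.00) in SP mice.

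Pdk4 was higher in the distal nephron than in PTCs in every library. In thick ascending limb cells it was at 25.6 CPM for WT-ND, 33.9 for WT-HFD, 13.6 for SP-ND and 23.6 for SP-HFD, and in cells of the distal convoluted or connecting tubule at 18.4, 29.7, 14.8 and 35.6 CPM. HFD was higher than ND in both classes and both genotypes, with log2 ratios of 0.41 (0.10 to 0.72) and 0.79 (0.46 to 1.13) in the thick ascending limb and 0.69 (0.29 to 1.10) and 1.27 (0.87 to 1.68) in the distal tubule. In SP mice the PTCs ran the other way, with a log2 ratio of −1.44 (−2.26 to −0.70).

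Acot2 was higher in podocytes than in PTCs in every library but SP-ND, at 54.7, 47.5, 38.9 and 40.0 CPM, and its podocyte ratio of HFD to ND had an interval that held 0 in both genotypes. In thick ascending limb cells it was at 27.0, 23.0, 19.5 and 23.9 CPM, again with intervals that held 0 for diet. Acot1 in those cells was at 4.05, 4.11, 5.91 and 4.12 CPM, and its log2 ratio of HFD against ND was at 0.02 (−0.83 to 0.88) in WT and −0.52 (−1.21 to 0.14) in SP mice. Angptl4 was at 44.5 CPM in fibroblast or mural cells of WT-ND, 281% of its PTC level (112 to 586), but on 7 UMIs in 26 cells. In the thick ascending limb it was at 4.23, 4.70, 3.80 and 7.14 CPM, above its PTC level in both HFD libraries. That excess was not resolved from counting error in either HFD library, with 107% (70.4 to 160) of the PTC level in WT-HFD. Acot1 in principal cells of WT-HFD was at 14.9 CPM (17 UMIs), 140% of its PTC level (80.3 to 227).

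**Figure D5:**
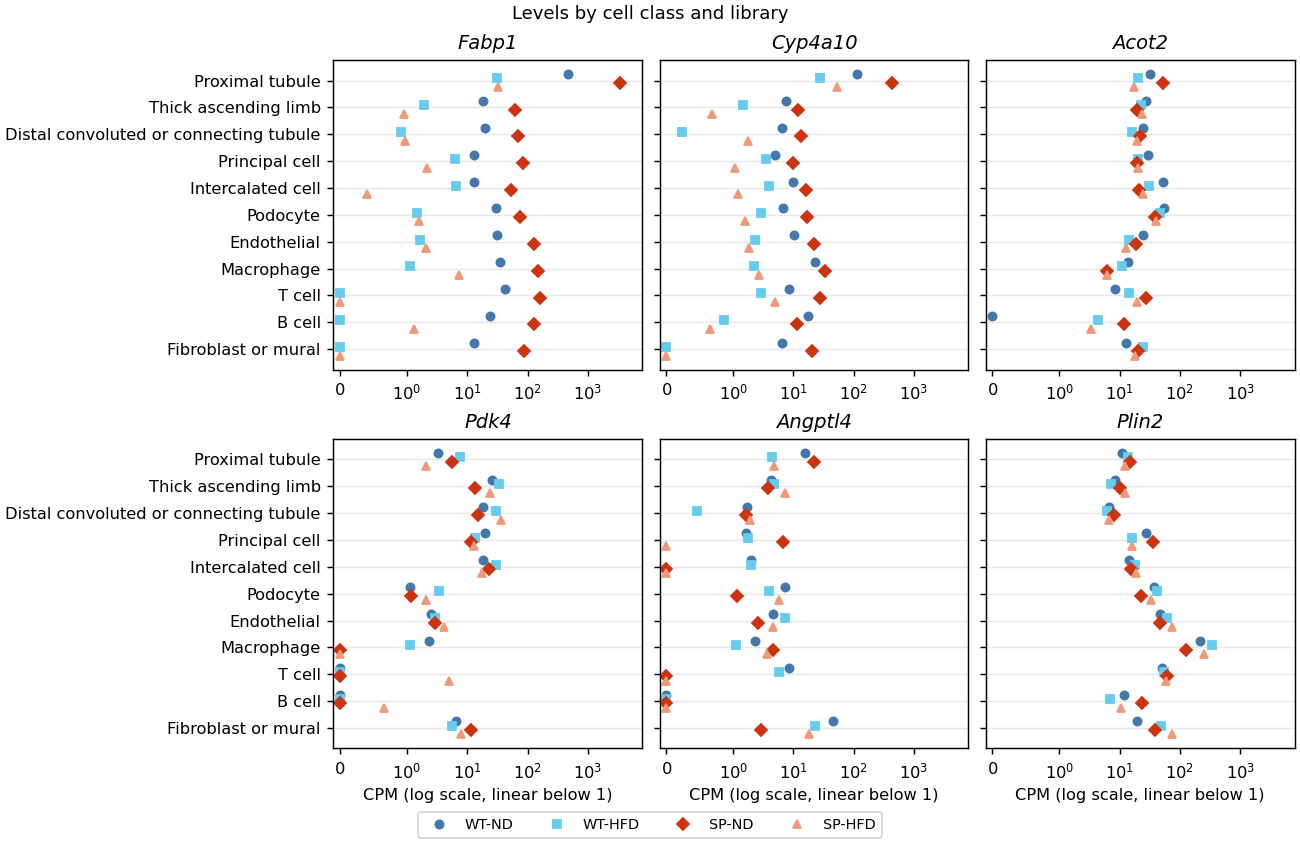
Pooled level (CPM, log axis that is linear below 1) of 6 members in 11 cell classes and 4 libraries. Fabp1 and Cyp4a10 stand out in PTCs, Plin2 in macrophages (127 to 337 CPM), Pdk4 in the distal segments, and Acot2 is spread over most classes.

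The rest of the pathway was read in the same PTCs from lists of genes around the receptor. Ppara itself was at 31.1 CPM in the ND library and 36.9 in the HFD library of WT mice, and 28.0 and 53.6 in those of SP mice, so its RNA was higher in the HFD libraries. Cyp4a10, Cyp4a14, Fabp1, Acot1, Acot2 and Angptl4 were lower in those libraries. HFD against ND gave Ppara a log2 ratio of 0.25 (0.11 to 0.38) in WT mice, 0.56 (0.41 to 0.70) without the PTCs that met another class's rule, and 0.94 (0.74 to 1.13) in SP mice. Of the 9 receptors and cofactors above 10 CPM, Ppard, which encodes the related receptor PPARδ, was the sole gene at least 2-fold lower on HFD, at 19.1, 3.52, 21.0 and 3.66 CPM, and 0 were at least 2-fold higher in either genotype. HFD against ND gave it −2.44 (−2.77 to −2.12) in WT (−3.02, −3.51 to −2.56, without those PTCs) and −2.52 (−3.09 to −1.99) in SP mice on the log2 scale, and a difference by genotype was not detectable at this depth (SP-ND against WT-ND 0.14, −0.07 to 0.35).

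Pparg was at 5.38, 7.57, 4.34 and 9.39 CPM, and the heterodimer partner Rxra at 31.2, 23.1, 34.9 and 27.4 CPM. The coactivator Ppargc1a was at 49.2, 59.2, 69.3 and 49.5 CPM and the corepressor Ncor1 at 237, 135, 256 and 181 CPM. Rxrb, Ppargc1b, Ncoa1 and Med1 each stayed within 11.4 to 21.7 CPM in all 4 libraries. On neither diet did a gene of this list differ at least 2-fold between genotypes.

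Among the other Cyp4a genes, Cyp4a31 and Cyp4a12b were likewise highest in SP-ND and lower on HFD, and Cyp4a12a was not. Cyp4a31 was at 12.3 CPM for WT-ND, 3.62 for WT-HFD, 25.1 for SP-ND and 7.67 for SP-HFD, and Cyp4a12b at 7.89, 1.99, 16.6 and 3.09 CPM. Cyp4a12a, the male-type fatty acid hydroxylase of the mouse kidney, was at 275, 296, 213 and 392 CPM, lowest where Cyp4a10 was highest. The last 500 bases of Cyp4a12a and Cyp4a12b share 30.2% of their windows of 90 bases, and 47.0% of those of Cyp4a32 occur in Cyp4a31 or Cyp4a10, so levels of these copies are uncertain. Cyp4a29, Cyp4a30b and Cyp4a32 had at most 2 UMIs in any library.

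Of the 7 other acyl-CoA thioesterases, 0 of 4 above the minimum differed at least 2-fold in WT mice by diet, and 1 of 5 (Acot3) was lower on HFD in SP mice. Acot13 was at 173, 250, 176 and 288 CPM, Acot12 at 63.7, 55.3, 49.2 and 81.3 CPM and Acot4 at 48.7, 26.0, 63.7 and 34.7 CPM. Of 8 genes of fatty acid uptake and activation above the minimum, 1 was lower on HFD in both genotypes, Acsl1, the acyl-CoA synthetase that activates long-chain fatty acids, at 95.4, 44.4, 194 and 38.4 CPM. Fabp3 and Fabp4 were at least 2-fold higher on HFD in WT mice and lower in SP-HFD than in WT-HFD, at 36.8, 155, 41.7 and 61.2 CPM for Fabp3 and 7.05, 40.7, 2.44 and 12.6 CPM for Fabp4. Without the PTCs that met another class's rule, WT-HFD against WT-ND was at a log2 ratio of 1.66 (1.53 to 1.80) for Fabp3 and 3.20 (2.76 to 3.67) for Fabp4, and SP-HFD against WT-HFD at −0.63 (−0.78 to −0.48) for Fabp3, less than 2-fold, and −1.78 (−2.26 to −1.33) for Fabp4. Fabp4 is known from fat and endothelial cells, and the 4 check markers of endothelial cells summed to 30.1, 42.1, 4.74 and 18.7 CPM in PTCs. The 4 check markers of the distal tubule summed to 108, 348, 103 and 97.1 CPM. The part of other cells' RNA in these differences was not tested. In SP mice Fabp4 and Acsm3 were higher on HFD. On ND, Acsl1 was higher and Acsm3 lower in SP than in WT mice. Acsl1, Acsm3, Fabp3 and Fabp4 are named because of these values. Slc27a2 was at 2119, 1302, 1694 and 1824 CPM, Acsm1 at 248, 236, 209 and 295 CPM and Cd36 at 231, 223, 183 and 278 CPM.

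Of 9 genes of peroxisomal oxidation, Ehhadh was at least 2-fold lower on HFD in both genotypes. This bifunctional enzyme of the pathway was at 229, 96.5, 352 and 152 CPM. Acaa1b was at 132, 66.4, 196 and 67.2 CPM, lower on HFD by over 2-fold in SP mice and by just under 2-fold in WT mice. Abcd3, a fatty acid transporter of the peroxisomal membrane, was at 183, 116, 211 and 149 CPM. Of 15 genes of mitochondrial oxidation and ketone synthesis, 0 were at least 2-fold higher on HFD in either genotype. Acaa2, the last enzyme of the mitochondrial oxidation cycle, was lower on HFD in SP mice, at 86.8 against 26.4 CPM, as was the carrier gene Ucp2, at 46.7 against 16.8 CPM, and Ucp2 was also lower in SP-HFD than in WT-HFD, at 16.8 against 41.5 CPM. Acaa1b, Acaa2 and Ucp2 are named after their values were seen. Acadm, Acadl and Eci1 stayed within 2-fold, with Acadm at 434, 355, 477 and 491 CPM, Acadl at 221, 164, 283 and 190 CPM and Eci1 at 139, 123, 183 and 151 CPM.

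Of the 3 lipid droplet genes above the minimum, 0 differed at least 2-fold in any comparison, with G0s2, an inhibitor of triglyceride lipolysis, at 48.6, 64.8, 61.0 and 57.0 CPM, Pnpla2, the lipase it inhibits, at 31.1, 39.0, 29.6 and 35.7 CPM, and Plin3 at 22.7, 29.7, 20.9 and 22.7 CPM. Of 5 other targets above the minimum, Txnip was higher in WT-HFD than in WT-ND and than in SP-HFD, and Mgll was lower in SP-HFD than in SP-ND. Txnip was at 38.9, 98.8, 40.5 and 33.2 CPM, and without the PTCs that met another class's rule its log2 ratio was 1.09 (0.90 to 1.28) for WT-HFD against WT-ND and −0.65 (−0.90 to −0.40) for SP-HFD against WT-HFD, the latter less than 2-fold. Mgll was at 57.8, 36.9, 76.0 and 29.5 CPM, and Slc22a5, the carnitine transporter, was at 37.2, 33.0, 34.5 and 43.2 CPM.

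Genes whose pattern lay nearest to the mean of Cyp4a10 and Cyp4a14 were found by the Euclidean distance over 3 log2 ratios of CPM + 1 (both diet comparisons and genotype on ND), among the 5172 genes that reached 20 CPM in any library. The 3 ratios rest on 4 libraries, so the distance is a description. Fabp1 was nearest of all, at 1.70, and Acot1 ranked at 6, at 3.06. Cyp4a10 and Cyp4a14 themselves ranked at 3 and 4, each at 2.89 from their own mean. Fabp1 thus lay nearer to that mean than either of the genes that set it. Acot2 ranked at 34 and Vnn1 at 300.

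Of the 8 nearest genes that were in none of the lists, those described here are Elovl6, Gsta3, Acmsd, Hist2h2aa1, Rdh16f2, Idi1 and Acsl3. Elovl6, a fatty acid elongase, was at 15.0, 8.56, 34.8 and 4.12 CPM, and Gsta3, a glutathione transferase, at 44.8, 29.7, 125 and 26.4 CPM. Idi1, an enzyme of cholesterol synthesis, was at 71.3, 25.6, 125 and 36.4 CPM. Acmsd, an enzyme of tryptophan breakdown, was at 85.6, 18.6, 103 and 19.5 CPM and differed by diet more than by genotype. Hist2h2aa1, a histone gene with near-identical copies and so an uncertain level, was at 9.64, 3.30, 22.1 and 5.38 CPM, Rdh16f2 at 43.2, 13.4, 75.7 and 21.8 CPM and Acsl3 at 16.8, 10.6, 41.9 and 11.7 CPM. All of these were highest in SP-ND, and the 2 HFD libraries lay below the 2 ND libraries for each of them. They were chosen by this pattern, so it is no separate result.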

How the data were processed

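The deposited files held raw UMI counts for each barcode, produced by the authors with Cell Ranger against mouse genome mm10 (GRCm38). The file headers name cellranger version 6.1.2 and the submitters' processing notes version 2.1.1. The chemistry reads the 3′ end of transcripts, so differences were read between libraries. CPM ranked genes within a list only to choose which to name.

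A barcode was kept if it held 200 to 5000 detected genes and less than 50% of its UMIs were mitochondrial, which set aside 32.7 to 49.8% of barcodes by the mitochondrial limit. Doublets were removed by a score from simulated doublets, 0.8% per 1000 barcodes passing, 365 to 945 per library. Each other class took cells with at least 5 UMIs of its own markers that met neither the PTC rule nor a further class's rule. A PTC could also meet another class's rule. Counts were summed over the cells of a class and divided by their total UMIs (CPM). CPM has exact Poisson intervals, ratios have exact conditional binomial intervals and shares have Clopper-Pearson intervals, all at 95%, covering counting error only. With 1 library per condition no test was made. The ratio script was tested on simulated data.

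The 10 members and the pathway lists were chosen with earlier results of these data known. Genes named from each list are its 3 highest in mean CPM, apart from the small receptor and Cyp4a lists, which are given in full, and the genes said to be named for their values. The nearest genes are the first 8 outside the lists. Some genes that these rules select are not reported here. Alternatives changed the barcode limits, the PTC rule, the scaling, the weighting of cells and the minimum of 10 CPM. Gene positions are from GENCODE on GRCm38. The scripts ran under Python 3.11.15 with scipy 1.17.1, numpy 2.4.6 and, for tables, pandas 2.3.3, and the figures were drawn with matplotlib 3.10.9.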

Additional observations from a re-analysis of the deposited data

Results flagged for a closer look

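Pdk4 differed in opposite directions between genotypes and between diets in PTCs. Its log2 ratio of HFD to ND was 1.22 in WT and −1.44 in SP mice, and its log2 ratio of SP to WT was 0.76 on ND and −1.90 on HFD. Without the PTCs that also met another class's rule, the WT ratio was 0.23 (−0.29 to 0.74), so its direction was not resolved, and SP against WT on HFD was −0.87 (−1.76 to −0.06). The difference between these ratios was not tested, and the 4 values rest on the same 4 libraries.

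Barcodes with at least 50% mitochondrial UMIs, which the report's comparisons left out, held Cyp4a10, Cyp4a14 and Fabp1 at lower CPM than kept PTCs where they met the PTC rule. Mitochondrial UMIs are part of the CPM total, so a larger mitochondrial share by itself lowers the CPM of other genes. Its part in these lower levels was not tested. Such barcodes outnumbered kept PTCs in SP-ND (2069 against 1158) and SP-HFD (1406 against 749), but not in WT-ND (1893 against 2701) or WT-HFD (1453 against 3062). The part of this uneven filter in the levels of kept PTCs was not tested. In SP-ND, 2069 such barcodes held Cyp4a10 at 174 CPM, Cyp4a14 at 142 CPM and Fabp1 at 964 CPM. In WT-ND, 1893 such barcodes held 48.7, 5.46 and 119 CPM of these 3 genes. In the HFD libraries they held 16.5, 0.176 and 16.3 CPM in 1453 WT barcodes and 19.1, 0 and 22.1 CPM in 1406 SP barcodes.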

How the results depend on the processing

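No paired analysis was possible because each condition has 1 library. Of 18 alternatives, 3 were chosen after seeing the data (early cells only, late cells only, and barcodes with at least 50% mitochondrial UMIs only). Across all 18, 0 of the 15 member ratios of at least 2-fold that also met the minimum of 10 CPM changed sign. Of the 25 other ratios, 12 had the other sign under at least 1 alternative. Among these were Cyp4a14 and Creb3l3 in SP-HFD against WT-HFD, at log2 ratios of 1.01 and 1.10 but below that minimum. Of the 144 counts of members past 2-fold, 7 differed from the main count by over 1.5 times. Shares of all genes were not counted under the alternatives. With no minimum of 10 CPM, 2 members were higher and 1 was lower in SP-HFD than in WT-HFD, and 1 was higher in WT-HFD than in WT-ND, where the main count was 0. With mitochondrial UMIs left out of the total, 1 member was higher in WT-HFD than in WT-ND and 1 was lower in SP-HFD than in WT-HFD. The mean over cells gave 1 member higher in SP-HFD than in WT-HFD. In barcodes with at least 50% mitochondrial UMIs only, 3 members, of 4 above the minimum, were lower in WT-HFD than in WT-ND, against 5 of 8. The Acot1 log2 ratio of SP-ND to WT-ND was 0.67 with no limit on mitochondrial UMIs. Sizes of other ratios moved as well. The Fabp1 log2 ratio of SP-ND to WT-ND ran from 2.46 to 3.32 and left its counting interval under 12 of the 18 alternatives. For Cyp4a10, WT-HFD against WT-ND ran from −2.45 to −1.14 and left its interval under 7. For Cyp4a14, SP-HFD against SP-ND left its wide interval under 0. Median-of-ratios size factors moved the 4 comparisons by at most 0.09 on the log2 scale. Depth limited Creb3l3, Pdk4 and the HFD levels of Cyp4a14.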

Other observations

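The following 3 genes of PTCs were chosen after their values were seen. Kap, the kidney androgen-regulated protein, was at 50146 CPM on ND and 37848 on HFD in WT mice, and at 20012 and 44321 CPM in SP mice. Cyp4a12a was at 275, 296, 213 and 392 CPM in that order, and Acsm3 at 272, 205, 77.9 and 328 CPM. SP-ND was the lowest library for all 3 genes.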
